A study of Mus musculus with 6 samples.

Results

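Interferon-stimulated genes were followed in full-depth wounds of the back skin of mice. The set holds 39 genes, taken by gene symbol from the array's platform annotation, of which 37 had at least 1 probe among the 19057 genes measured. They carried 68 of the 45281 probes. Ifi203 and Ifi44 had no probe under these names and were not analysed here. The 4 genes of the Ifi200 locus on chromosome 1 (Ifi202b, Ifi203, Ifi204 and Ifi205) are set apart from the other 35.

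The wounds were collected 8 days after injury from 6 mice with a C57/BL6 background, 1 array each. In the stabilised and knockdown mice β-catenin had been altered before wounding, and the rest were controls. In the adenovirus experiment, mice homozygous for a floxed exon 3 of the β-catenin gene received an adenovirus that carried GFP (the GFP control, 1 array) or Cre (stabilised, 1 array), both at 2 months of age. In the tamoxifen experiment, all 4 mice were homozygous for floxed exons 2 to 6 and received tamoxifen. The 2 knockdown mice also carried Cre-Esr1, which the 2 tamoxifen controls lacked, and the labels name no promoter for it. Replicate 1 of knockdown and of tamoxifen control was 5 months old and replicate 2 was 2 months old. Whole wounds were profiled, so fewer cells of a type and less RNA per cell cannot be told apart in any value below.

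Type I interferons signal through a receptor and its Janus kinases to a complex with STAT2 and IRF9, which enters the nucleus and binds the interferon-stimulated response element. Type II interferon signals through its own receptor and acts through the gamma-activated site. The induced genes encode antiviral proteins, GTPases that act against intracellular microbes, parts of the antigen-processing machinery, and regulators that amplify or end the response. In skin wounds such genes can be expressed by keratinocytes, fibroblasts and infiltrating leukocytes.

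Levels are the deposited log2 values of each gene's brightest probe by mean, and a probe was counted as detected where its detection p was under 0.01. Between 15217 and 16656 probes were detected on an array, and the small number of arrays limits every comparison. Ctnnb1, the β-catenin gene, read 11.93 and 11.86 on the knockdown arrays against 12.04 and 11.48 on the tamoxifen controls, and 11.40 on the stabilised array against 11.49 on the GFP control. The place of its probe relative to the floxed exons is not known here, and these values therefore check no label. The 2 experiments also differed in sex-linked genes: Xist, which silences 1 X chromosome in females, read 10.42 and 10.12 on the adenovirus arrays and was below detection on the tamoxifen arrays, whereas the Y-linked Eif2s3y was detected on all 4 tamoxifen arrays (8.81 to 9.09) and on no adenovirus array. The stabilised array stood apart in H2-Ea, an MHC class II gene that RefSeq lists as a transcribed pseudogene in C57BL/6J. H2-Ea read 13.47 there and was below detection on the other 5 arrays (4.71 to 4.97).

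Of the 37 interferon-stimulated genes with a probe, 26 were detected on all 6 arrays. Every probe of 5 of them was below detection on every array: Ifi204 and Ifih1, which encode sensors of DNA and of double-stranded RNA, Ifit1, which binds foreign RNA ends, the GTPase gene Iigp1, and Xaf1, which encodes an antagonist of inhibitors of apoptosis. Mx1, Oas1a and Oas3 were each detected on 1 array. The highest levels belonged to the Ifitm genes, whose small membrane proteins block entry of viruses into cells. Ifitm3 averaged 14.24 over the 6 arrays, Ifitm1 13.96 and Ifitm2 13.68. Ifitm3 read 14.66 and 14.83 on the GFP control and stabilised arrays, 14.14 and 14.03 on the tamoxifen controls, and 13.95 and 13.82 on the knockdown arrays. Ifitm1 read 14.36 and 14.39, 13.79 and 13.81, and 13.60 and 13.78 in the same order, so both genes were highest on the adenovirus arrays. Levels of different genes come from different probes and are not compared further. The plot of all interferon-stimulated genes by array shows the adenovirus arrays to the right of the tamoxifen arrays in most rows.

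**Figure D1:**
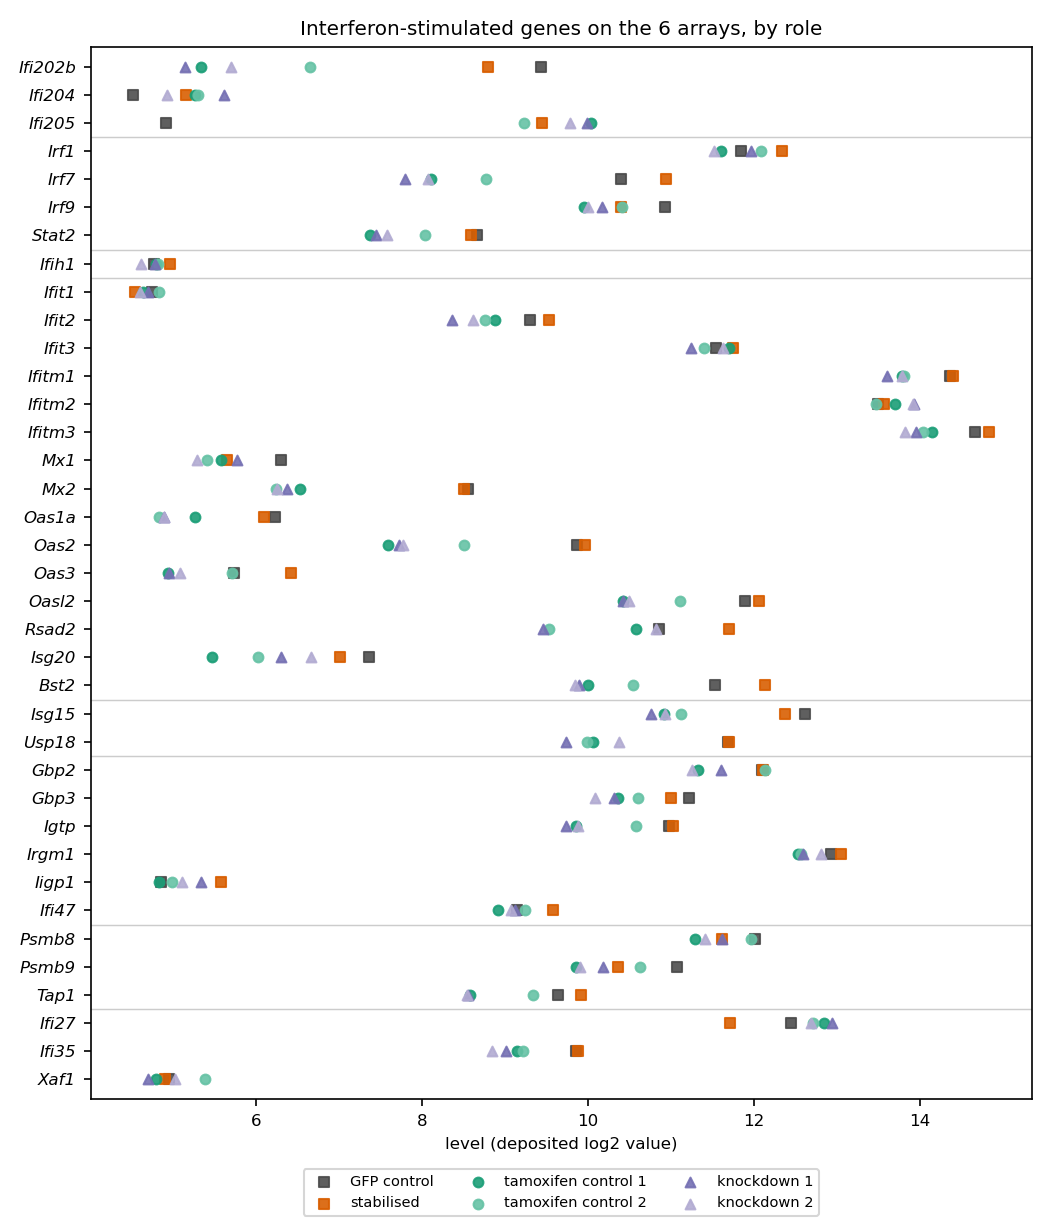
Level of the 37 interferon-stimulated genes with a probe on each of the 6 arrays. The horizontal axis is the deposited log2 value, each row is a gene and each symbol an array, and grey lines separate the groups by role, with the Ifi200 locus at the top. The GFP control and the stabilised array (squares) lay above all 4 tamoxifen arrays for Irf7, Mx2, Oas2, Isg15, Usp18 and Bst2. The GFP control lay far to the left for Ifi205.

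Promoters are shown for the genes on which the results below turn, to let the letters of the known response elements be read beside the values. RefSeq promoter windows (GRCm38.p6) held an entry for 32 of the 39 genes. The 250 bases before the start were searched on both strands for GAAA followed by any 2 bases and GAAA again, the core of the interferon-stimulated response element, and for TTCNNNGAA, which reads the same on both strands and is the core of the gamma-activated site. This GAAA repeat was present in 15 of the 32 genes (46.9%), against 3.5% of the 27025 genes with an entry. TTCNNNGAA was present in 8 of the 32 (25.0%), against 8.1% of the 27025. A gene with several start sites counted once. These are matches of letters and not binding sites.

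The 3 promoters shown first are those of genes that passed the test between the experiments: Isg15 (chr4:156200819-156201068), Bst2 (chr8:71537473-71537722) and Irf7 (chr7:141266425-141266674). All are on the minus strand, written 5′ to 3′ toward the gene, with matches in capitals. Isg15 held 3 overlapping matches of the GAAA repeat, which began 78, 72 and 66 bases before the start. Bst2 held 2, which began 130 and 124 bases before it and ran on from a match of TTCNNNGAA that began 136 bases before it. Irf7 held neither set of letters in this window. Mx2, which also passed the test, had no promoter entry and is not shown.
Isg15: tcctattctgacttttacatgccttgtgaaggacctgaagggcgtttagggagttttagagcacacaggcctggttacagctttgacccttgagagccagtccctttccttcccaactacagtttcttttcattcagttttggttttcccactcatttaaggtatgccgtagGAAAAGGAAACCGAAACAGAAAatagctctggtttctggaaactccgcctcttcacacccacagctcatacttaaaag
Bst2: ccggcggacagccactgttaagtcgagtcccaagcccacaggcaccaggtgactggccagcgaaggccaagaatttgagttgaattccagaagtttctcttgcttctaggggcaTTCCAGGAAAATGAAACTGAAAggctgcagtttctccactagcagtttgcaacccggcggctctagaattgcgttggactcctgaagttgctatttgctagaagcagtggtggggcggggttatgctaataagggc
Irf7: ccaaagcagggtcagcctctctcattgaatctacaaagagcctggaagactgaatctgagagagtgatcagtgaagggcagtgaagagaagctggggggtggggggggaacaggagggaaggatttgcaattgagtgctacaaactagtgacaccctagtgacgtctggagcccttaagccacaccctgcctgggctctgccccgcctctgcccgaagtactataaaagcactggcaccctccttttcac

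The experiments were compared first, as the mean of the 4 tamoxifen arrays against the mean of the 2 adenovirus arrays. Interferon-stimulated genes were lower on the tamoxifen arrays in 26 of the 29 that were detected on at least 2 arrays. Mx2, Isg15, Irf7 and Bst2 fell on the tamoxifen arrays relative to the adenovirus arrays at an adjusted p under 0.05 (limma over 10112 genes, Benjamini-Hochberg). Ifi205 was the only one of the 29 that passed in the other direction. Genotype, treatment, sex and experiment cannot be told apart in this comparison. Age was not balanced either: both adenovirus mice were 2 months old, and replicate 1 of each tamoxifen group was 5 months old. Each adenovirus group is 1 array and was assumed to vary like the tamoxifen groups.

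Of all 10112 genes, 1.02% passed this test, 0.613% as higher and 0.405% as lower on the tamoxifen arrays. Among the 29, 5 passed, 1 higher and 4 lower. An unadjusted p under 0.05 was reached by 20 of the 29, against 14.1% of all genes. The groups did not overlap, with all tamoxifen arrays below both adenovirus arrays, for 19 of the 29 (12.9% of all genes), and with all above for 1, Ifi27 (10.4% of all genes). The median difference was -0.77 log2, against -0.02 over all genes, of which 53.7% were lower. Without the Ifi200 locus, 25 of 27 were lower, with a median of -0.77.

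Each adenovirus array showed the pattern by itself, in a count chosen after the data were seen and with the tamoxifen arrays shared. Of the 27 genes outside the Ifi200 locus, 21 were higher on the GFP control than on any tamoxifen array, against 22.6% of all genes, and 21 were higher on the stabilised array, against 32.5% of all genes. The median distance from the tamoxifen mean was 0.81 log2 for the GFP control and 0.85 for the stabilised array.

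By their brightest probes, all 4 transcription factor genes were lower on the tamoxifen arrays and 1 passed the test. Irf7, the factor that drives the late, broad phase of type I interferon production, read 10.40 for the GFP control and 10.94 for the stabilised array. It read 8.11 and 8.77 on the tamoxifen controls and 7.80 and 8.08 on the knockdown arrays. All 4 tamoxifen arrays lay below both adenovirus arrays, and the difference was -2.48 log2 (SE 0.24, 5.58-fold lower, limma adjusted p = 0.0374).
Stat2, a subunit of the type I complex, was 1.05-fold apart between the adenovirus arrays and differed by -1.02 log2 between the experiments without passing (limma adjusted p = 0.185). Irf9, the DNA-binding subunit of the same complex, differed by -0.53 (limma adjusted p = 0.328) and Irf1, an early factor of the type II response, by -0.30 (limma adjusted p = 0.612), and in both the groups overlapped. Dimmer probes of Irf1 that were detected on all 6 arrays differed by 0.38, 0.28 and -0.19 log2, so its direction depended on the probe. On the probe at 0.38, the tamoxifen arrays (8.04 to 8.58) lay above both adenovirus arrays (7.85 and 7.93).

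Of the 11 antiviral genes kept, 10 were lower on the tamoxifen arrays, 9 of them without overlap, and 2 passed. Mx2 encodes a dynamin-like GTPase that blocks virus replication. It read 8.55 for the GFP control and 8.51 for the stabilised array, 6.54 and 6.24 on the tamoxifen controls, and 6.38 and 6.25 on the knockdown arrays. The groups did not overlap, and the difference was -2.18 log2 (SE 0.16, limma adjusted p = 0.0186). The tamoxifen values lay near the lowest detected signal of those arrays (5.95 to 6.14). Without background correction the difference of Mx2 was -1.30 log2.
Bst2 encodes tetherin, which holds budding virions at the cell surface. It read 11.53 for the GFP control and 12.13 for the stabilised array, against 10.002, 10.54, 9.90 and 9.85 on tamoxifen controls 1 and 2 and knockdown 1 and 2. All 4 tamoxifen arrays were lower, by a mean of 1.76 log2 (SE 0.20, limma adjusted p = 0.0464).

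The oligoadenylate synthetase genes, whose products activate the RNA-degrading RNase L, were lower on the tamoxifen arrays without passing. Oas2 read 9.87 and 9.97 on the adenovirus arrays and 7.60 to 8.51 on the tamoxifen arrays (difference -2.02 log2, limma adjusted p = 0.0782). Oasl2, an oligoadenylate synthetase-like gene, differed by -1.37 (limma adjusted p = 0.116). Oas1a and Oas3 were below detection on every tamoxifen array and detected on 1 adenovirus array each, which gives adenovirus levels at least 1.08-fold and at least 1.02-fold higher. A bound of this kind sets each dim array at the higher of its own value and its lowest detected signal.
Among the others, the difference was -1.18 log2 for Rsad2 (viperin, which makes a chain-terminating nucleotide), -1.07 for the exonuclease gene Isg20, -0.77 for Ifit2, -0.76 for Ifitm3 and -0.63 for Ifitm1, all without overlap and with limma adjusted p from 0.119 to 0.400. Ifit3 (-0.15) and Ifitm2 (0.22) overlapped between the experiments. Mx1, which is disrupted in C57BL/6 and many other laboratory strains, was detected only on the GFP control (6.30).

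Both genes of the ubiquitin-like system were lower on the tamoxifen arrays and 1 passed. Isg15, the ubiquitin-like protein that is attached to other proteins after interferon, read 12.61 for the GFP control and 12.38 for the stabilised array. It read 10.92 and 11.13 on the tamoxifen controls and 10.76 and 10.93 on the knockdown arrays. The groups did not overlap and differed by -1.56 log2 (SE 0.15, 2.95-fold lower, limma adjusted p = 0.0360). Usp18, the protease that removes Isg15 and damps the type I receptor, read 11.69 and 11.70 on the adenovirus arrays and 9.73 to 10.37 on the tamoxifen arrays (difference -1.66, limma adjusted p = 0.0672).

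The GTPase genes were lower in 5 of 5 kept, 3 without overlap, and none passed (limma smallest adjusted p = 0.155, with 2 at an unadjusted p under 0.05). Gbp3 differed by -0.77 log2 and Igtp by -0.99, and Gbp2, Irgm1 and Ifi47 by -0.52, -0.36 and -0.27. These proteins coat and disrupt the compartments of intracellular microbes. The antigen-processing genes were lower in 3 of 3, and none passed (limma smallest adjusted p = 0.213, with 1 at an unadjusted p under 0.05). Tap1, a peptide transporter subunit, differed by -1.02 log2 without overlap, and the immunoproteasome subunits Psmb9 and Psmb8 by -0.57 and -0.25 with overlap. Of the remaining genes, Ifi35 differed by -0.82 and Ifi27 by 0.72, with limma adjusted p of 0.112 and 0.159. Ifi27 read 12.45 on the GFP control, 11.72 on the stabilised array and 12.69 to 12.94 on the tamoxifen arrays, so it ran opposite to the rest, and its second probe had the same order of experiments.

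**Figure D2:**
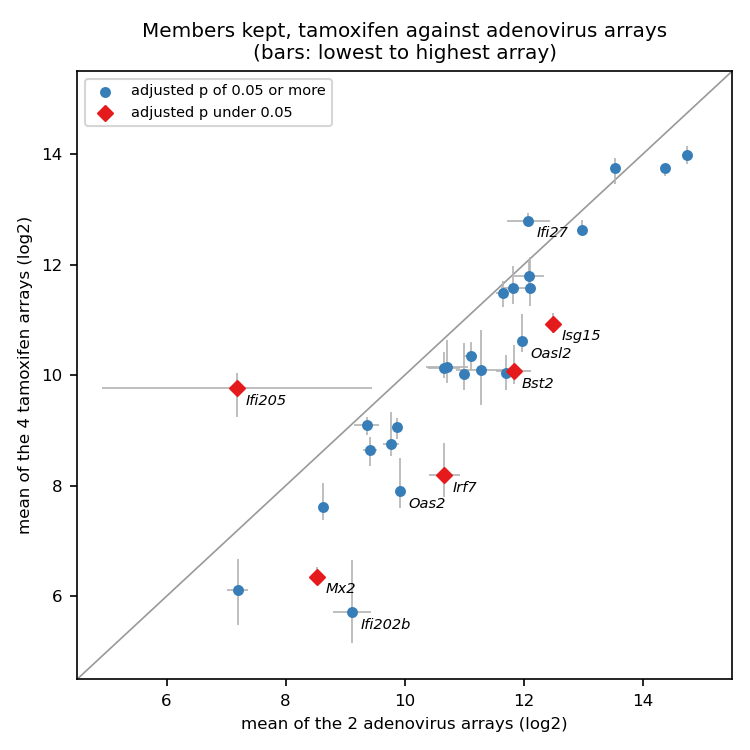
Mean level of the 29 interferon-stimulated genes detected on at least 2 arrays, with the 2 adenovirus arrays on the horizontal and the 4 tamoxifen arrays on the vertical axis (both log2). Points are genes, bars run from the lowest to the highest array, red diamonds passed the limma test and the grey line marks equal levels. Most points lie below the line, with Irf7, Mx2, Isg15 and Bst2 among the farthest, and Ifi205 lies above it with a horizontal bar from 4.91 to 9.45.

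With each experiment fitted as 1 group, so that the spread of both the adenovirus and the pooled tamoxifen arrays entered the error and more residual degrees of freedom were left, 7 genes passed, all lower on the tamoxifen arrays. Mx2, Isg15, Irf7 and Bst2 kept their calls (limma adjusted p = 0.00103, 0.00720, 0.0174 and 0.0384), whereas Ifi205 lost its call (limma adjusted p = 0.398). With any 1 array left out of the 4-group fit, Irf7, Isg15 and Bst2 lost their calls. Mx2 lost its call without tamoxifen control 1, tamoxifen control 2 or the stabilised array. Ifi205 was called only without the stabilised array. The difference stayed between -2.25 and -2.10 log2 for Mx2, -1.68 and -1.44 for Isg15, -2.75 and -2.21 for Irf7, and -2.06 and -1.46 for Bst2. Leaving out a tamoxifen array left 1 residual degree of freedom. The smallest two-sided p that an exact permutation test allows with 4 and 2 arrays is 0.0667.

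Marker levels of some cell types also differed between the experiments, but not every list mean separated them. The 6 skeletal muscle markers were all higher on the tamoxifen arrays, with a mean level of 8.62 to 12.31 log2 there against 7.99 for the GFP control and 5.26 for the stabilised array. Of 10 macrophage markers, 8 were higher on the tamoxifen arrays, where the mean was 10.65 to 11.21, against 9.88 for the GFP control and 10.91 for the stabilised array, and Mpeg1 passed the test (10.37 to 10.83 against 6.71 and 7.60, limma adjusted p = 0.00402). The 4 T cell markers detected were all lower on the tamoxifen arrays (mean 7.39 to 8.33 against 8.45 and 8.31), and Cd4, Cd8a and Cd5 were below detection on all arrays. The 3 natural killer cell markers kept were also lower on the tamoxifen arrays, 2 without overlap (12.9% of all genes). Their mean was 7.99 to 8.66 there, against 8.87 for the GFP control and 8.96 for the stabilised array. Of the 4 markers kept of plasmacytoid dendritic cells, which make much type I interferon, 2 were higher and 2 lower on the tamoxifen arrays, and their mean was 7.69 to 8.16 there against 7.78 for the GFP control and 7.94 for the stabilised array. The differences were -0.97 for Siglech, -0.44 for Irf8, 0.01 for Pacsin1 and 2.03 for Cox6a2. None passed the test (limma smallest adjusted p = 0.268, with 2 at an unadjusted p under 0.05). Cox6a2 ran in the direction of the skeletal muscle markers, so the list mean is not read as a level of plasmacytoid dendritic cells. Ccr9, the remaining marker, was below detection on all arrays. The part of these levels in the result was not tested.

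The rest of the pathway was read from lists of 162 further genes, 129 of them with a probe. Of the ligands, 4 of 20 were kept (Ifna1, Ifnab, Il15 and Il18), with a median difference between the experiments of -0.07 log2 and none past the test (limma smallest adjusted p = 0.520, with 0 at an unadjusted p under 0.05). Ifnb1 and Ifng, which encode interferon beta and interferon gamma, were below detection on all 6 arrays. None of the 8 receptor and kinase genes kept passed (median -0.07, limma smallest adjusted p = 0.313, with 1 at an unadjusted p under 0.05). The difference was -0.70 for Jak1, -0.24 for Ifnlr1, 0.23 for Ifnar2 and 0.00 for Ifngr2.
Further transcription factor genes were lower on the tamoxifen arrays in 10 of 10 kept, 5 without overlap (53.7% and 12.9% of all genes). None passed (limma smallest adjusted p = 0.0667, with 2 at an unadjusted p under 0.05). Irf4, a factor of lymphocytes and macrophages, differed by -1.14 and Nlrc5, which drives MHC class I genes, by -0.85. Among sensors and adaptors, 9 of 11 were lower and 1 fell (53.7% and 0.405% of all genes). It was Dhx58 (the RNA sensor regulator LGP2), at -1.29 log2 (limma adjusted p = 0.0455). Tlr7 differed by 0.13 and Ddx58 (RIG-I) by -0.24. None of the 8 inhibitor genes passed (median -0.10, limma smallest adjusted p = 0.516, with 0 at an unadjusted p under 0.05).

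Further interferon-induced genes followed the direction of the 39. Of the 48 kept, 43 were lower on the tamoxifen arrays, 33 without overlap (53.7% and 12.9% of all genes), with a median of -0.58 log2. Past the test, 5 fell (0.405% of all genes): Ifi27l2a (-1.86, limma adjusted p = 0.0277), Oas1g (-1.61, 0.0455), Rtp4 (-1.31, 0.0371), Eif2ak2 (-1.29, 0.0395) and Oas1c (-1.23, 0.0455). Oas1c was below detection on all tamoxifen arrays (5.09 to 5.27) and read 6.11 and 6.67 on the adenovirus arrays, at least 1.27-fold higher, so it was kept only through the adenovirus arrays. Eif2ak2 encodes PKR, the kinase that stops translation on sensing double-stranded RNA. Oas1c and Oas1g are close paralogues of Oas1a, and their probes may share transcripts.

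The β-catenin knockdown was compared next with the tamoxifen controls. No interferon-stimulated gene passed the test, and most sat slightly lower in the knockdown arrays. Of the 28 genes kept, 20 had a lower and 8 a higher mean, against 48.1% of all 9851 genes lower, and the median difference was -0.15 log2, against 0.01. Of the 28, 0 passed and 1 had an unadjusted p under 0.05 in limma, against 0% and 4.41% of all genes, and the smallest adjusted p of the 28 was 0.976. The groups did not overlap for 8 genes that were lower and 3 that were higher, against 16% and 17.1% of all genes. With 2 arrays in each group, the smallest two-sided p of an exact permutation test is 0.333.

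Isg20, the exonuclease gene, lay near the lowest detected signal. It read 6.30 and 6.67 on the knockdown arrays and 5.47 and 6.03 on the tamoxifen controls, where it was below detection, so the knockdown level was at least 1.39-fold higher (difference 0.74 log2, SE 0.26, limma adjusted p = 0.976). Both knockdown arrays lay above both controls, with knockdown 1 and tamoxifen control 2 the closest.
Irf7 differed by -0.50 log2 (SE 0.28), with both knockdown arrays below both controls. Bst2 (-0.40) and Tap1 (-0.41) did not overlap between the groups either: Tap1 read 8.55 and 8.54 on the knockdown arrays and 8.58 and 9.34 on the controls, so tamoxifen control 2 carried nearly all of its difference. Igtp differed by -0.41 with overlap (9.74 and 9.88 against 9.86 and 10.58), and Ifitm2 by 0.34 without overlap (13.93 and 13.91 against 13.69 and 13.47). None of these passed (limma adjusted p = 0.976 for each).
By role, 4 of 4 transcription factor genes, 8 of 11 antiviral genes, 3 of 5 GTPase genes and 3 of 3 antigen-processing genes were lower in the knockdown arrays, and none passed. The other differences lay between -0.33 (Ifit2) and 0.25 (Ifi205).

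The 2 ages differed in size. In the 5-month pair, 16 of the 28 were lower in knockdown, with a median of -0.04 log2 (43.4% of all genes lower), and in the 2-month pair 20 were lower, with a median of -0.30 (52.8% of all genes lower). Genes lower in both pairs numbered 11, against 25.8% of all genes. The 2-month tamoxifen control was the highest of the 4 tamoxifen arrays over the set: the mean level of the 29 genes was 10.30 there and at most 10.07 on the other 3. It exceeded the 5-month control in 19 of 28 genes, with a median of 0.28 (46.3% of all genes). Rsad2 ran in opposite directions, at -1.12 log2 in the 5-month pair (9.47 against 10.59) and 1.29 in the 2-month pair (10.82 against 9.53). Gbp2 ran from 0.28 in the 5-month pair to -0.89 in the 2-month pair. Each pair is 1 array against 1, so no test of the ages is given.

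**Figure D3:**
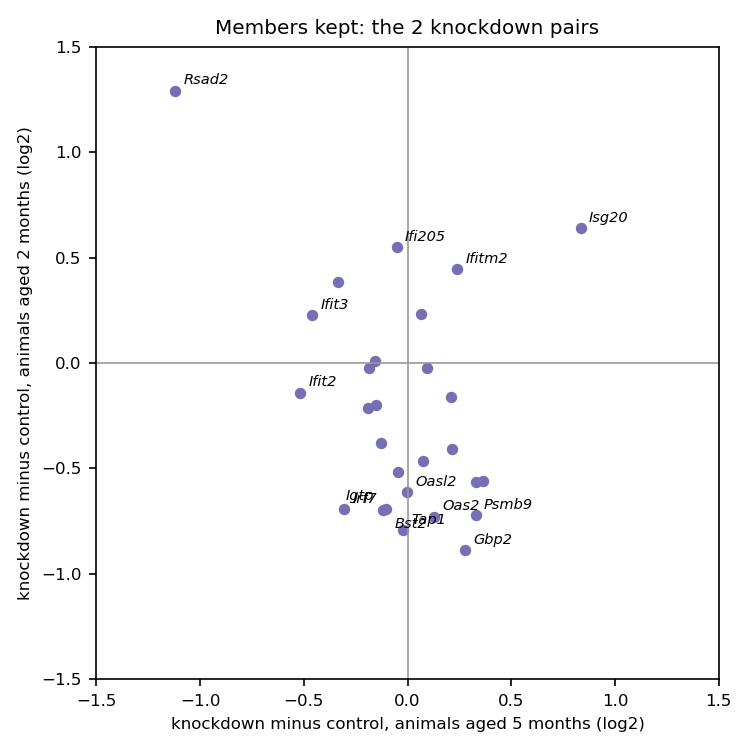
Knockdown minus tamoxifen control (log2) for the 28 interferon-stimulated genes kept, in the 5-month pair (horizontal axis) and in the 2-month pair (vertical axis). Each point is a gene, and the lines mark no difference. Of the 28 points, 20 lie below the horizontal line, Isg20 is positive in both pairs and Rsad2 is at -1.12 in one pair and 1.29 in the other.

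The T cell markers moved with tamoxifen control 2 as well: their mean was 8.33 there against 7.39 to 7.65 on the other tamoxifen arrays, with 4 of 4 lower in knockdown. The neutrophil marker mean was 10.52 on knockdown 2, against 7.86 to 8.49 on the other 3 tamoxifen arrays. The muscle markers were lower in knockdown in 6 of 6 (median -1.90 log2), and the keratinocyte markers in 6 of 8 (median -0.79). The part of these levels in the differences of the interferon-stimulated genes was not tested.
Of the pathway lists, 0 of the 4 ligand, 8 receptor, 10 transcription factor, 11 sensor, 8 inhibitor and 45 further induced genes kept passed in knockdown (limma smallest adjusted p = 0.976 in each but the ligands, where it was 0.983). The only gene of these lists with an unadjusted p under 0.05 was Socs3, which encodes an inhibitor of the Janus kinases. It read 10.84 and 10.80 on the knockdown arrays and 10.27 and 9.87 on the controls (0.75 log2). Among the largest, Cxcl9, a chemokine induced by interferon gamma, differed by -0.97, Ifnlr1 by -0.73 and Nlrc5 by -0.71.

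Stabilised β-catenin was compared with the GFP control on 1 array each, so the differences have no replicate check and no test. Of the 32 interferon-stimulated genes detected on at least 1 of the 2 arrays, 1 differed at least 2-fold, Ifi205, against 7.66% of all 9991 genes (2.76% higher and 4.89% lower). Outside the Ifi200 locus 0 of 30 did by their brightest probes, and these differences ran from -0.73 to 0.84 log2. Over the 32, 20 were higher on the stabilised array (55.3% of all genes), with a median of 0.04 log2, against 0.05 over all genes.
Rsad2 was the largest of the 30, at 10.86 for the GFP control and 11.69 for the stabilised array (0.84 log2). Oas3 read 5.74 (below detection) and 6.43, at least 1.33-fold higher on the stabilised array. Bst2 was 0.60 higher on it. Ifi27 was lower on the stabilised array by 0.73, Psmb9 by 0.70 (11.07 against 10.36) and Mx1 by 0.64. Mx1 was below detection on the stabilised array and too close to the lowest detected signal to bound its fold. Mx2, Usp18, Gbp2, Ifi35, Igtp, Ifitm1, Ifitm2, Oas2 and Stat2 differed by less than 0.1 log2 either way by their brightest probes. Dimmer probes differed more for some genes, by -1.78 for Ifi202b (brightest probe -0.63) and -1.08 for Irf9 (brightest probe -0.53). Those of Gbp2, Ifit3 (brightest probe 0.21) and Usp18 differed by -1.05, -0.86 and -0.69.
Among pathway genes, Irf4 was 1.21 log2 higher on the stabilised array, and the GTPase gene Gbp2b (5.00 against 6.84) and Ifitm6 (5.27 against 6.79) were below detection on the GFP control and detected on the stabilised array. Cxcl9 was lower by 1.44. All 10 macrophage markers were higher on the stabilised array (median 0.88 log2), and all 4 muscle markers kept were lower (median -3.54). Their part in these differences was not tested.

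The difference between the knockdown effect and the stabilised effect was tested in the same 4-group fit. Of 10112 genes 0.00989% passed, a single gene, Fcer1g, and 0 of the 29 interferon-stimulated genes did (limma smallest adjusted p = 0.673, with 1 at an unadjusted p under 0.05, against 5.2% of all genes). The difference was negative in 19 of the 29, against 54.6% of all genes, and its median over the 29 was -0.27 log2, against -0.05 over all genes.

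The Ifi200 genes encode proteins with a DNA-binding HIN domain, several of which sense DNA or regulate growth, and their levels are known to vary between inbred mouse strains. Their pattern was unlike that of the rest. Ifi202b was high on both adenovirus arrays and low on the tamoxifen arrays, Ifi205 was missing only on the GFP control, and Ifi204 was below detection on all 6 arrays (4.53 to 5.62). The promoters of the 2 detected genes, which lie next to each other in RefSeq's order of protein-coding genes, are shown so that their letters can be compared: Ifi205 (chr1:174031756-174032005) and Ifi202b (chr1:173982845-173983094), both on the minus strand, with matches in capitals. Ifi205 held the GAAA repeat from 134 bases before the start and Ifi202b held TTCNNNGAA from 148 bases before it.
Ifi205: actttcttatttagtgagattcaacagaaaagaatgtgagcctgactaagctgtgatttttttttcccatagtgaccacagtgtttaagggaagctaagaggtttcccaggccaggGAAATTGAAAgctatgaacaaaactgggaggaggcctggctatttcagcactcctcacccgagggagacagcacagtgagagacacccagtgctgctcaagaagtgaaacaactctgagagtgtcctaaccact
Ifi202b: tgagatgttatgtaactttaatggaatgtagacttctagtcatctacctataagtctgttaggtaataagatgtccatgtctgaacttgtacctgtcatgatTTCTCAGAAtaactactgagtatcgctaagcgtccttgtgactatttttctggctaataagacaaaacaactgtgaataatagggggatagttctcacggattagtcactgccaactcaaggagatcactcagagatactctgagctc

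Ifi202b encodes a protein of the family that binds DNA and inhibits the Aim2 inflammasome. Its brightest probe read 9.44 for the GFP control and 8.80 for the stabilised array. It read 5.35 and 6.65 on the tamoxifen controls, of which the second was detected, and 5.15 and 5.70 on the knockdown arrays, both below detection. The adenovirus arrays were thus at least 8.14-fold higher than the knockdown arrays, and the difference between the experiments was -3.41 log2 (SE 0.42, limma adjusted p = 0.0593). A second probe read 10.15 for the GFP control and 8.38 for the stabilised array and was below detection on all 4 tamoxifen arrays (4.58 to 4.86), at least 9.27-fold apart. The remaining probe was below detection everywhere. Both detected probes put the GFP control above the stabilised array, by 0.63 log2 on the brightest and by 1.78 on the second.

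Ifi205, a family member known for expression in myeloid cells, read 4.91 on the GFP control, where it was below detection. It read 9.45 on the stabilised array, 10.04 and 9.24 on the tamoxifen controls, and 9.99 and 9.78 on the knockdown arrays. A single array, the GFP control, stood apart from the other 5, and the 5 did not separate by experiment. The stabilised array was at least 10.8-fold and the tamoxifen arrays at least 13.4-fold higher than the GFP control. A second probe was also lowest on the GFP control, with 5.08 on the GFP control, 7.26 on the stabilised array and 6.09 to 7.05 on the tamoxifen arrays, and the remaining probe was below detection everywhere. The call of Ifi205 between the experiments (2.58 log2, limma adjusted p = 0.0408) rests on the mean of adenovirus arrays that lie 4.53 log2 apart, and without the GFP control the difference was 0.31 (limma adjusted p = 0.70). Between knockdown and control it differed by 0.25 log2 (SE 0.31, limma adjusted p = 0.976).

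**Figure D4:**
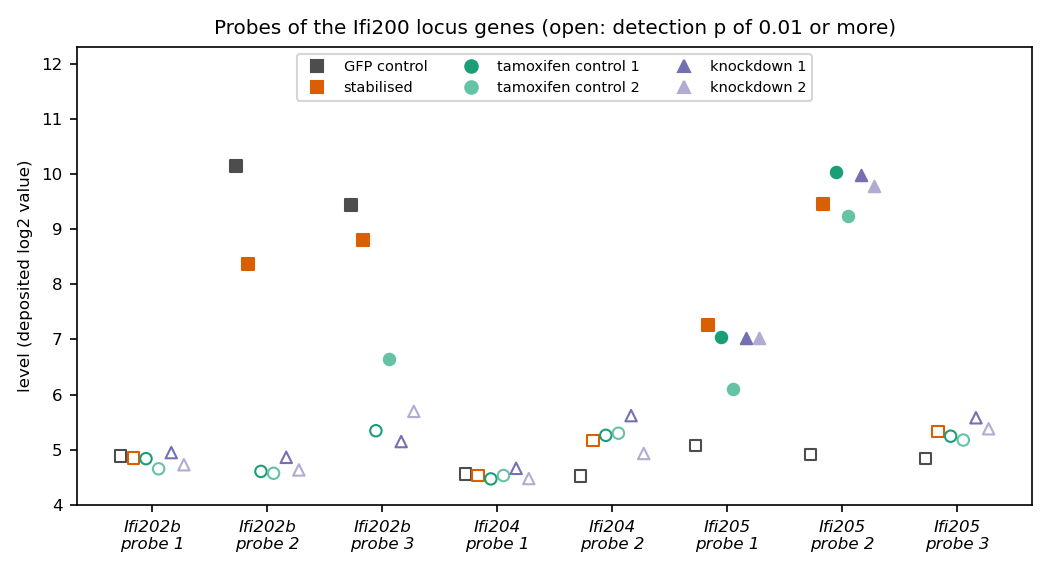
Level (deposited log2 value) of every probe of Ifi202b, Ifi204 and Ifi205 on the 6 arrays. Filled symbols were detected and open symbols were not. Ifi202b probes 2 and 3 are high on both adenovirus arrays (squares), Ifi205 probes 1 and 2 are high on every array but the GFP control (grey square), and the other probes were detected on no array.

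The genes most like Ifi205 across the 6 arrays, out of 10083, were Inmt (Pearson r = 0.9935), Fcer1g (0.992), Tomm34 (0.9883), Dusp23 (0.9866) and Rasa4 (0.9861). This ranking is a description over 6 arrays, and 1 array, the GFP control, sets it. Fcer1g, which encodes the signalling gamma chain shared by Fc receptors, read 4.71 on the GFP control (below detection) and 12.94 to 14.06 on the other 5, at least 121-fold higher on the stabilised array. Inmt, a methyltransferase gene, read 6.43 on the GFP control and 9.05 to 9.70 elsewhere, and Dusp23, a phosphatase gene, 7.45 and 8.75 to 9.21.
Fcer1g and Dusp23 lie on chromosome 1 with Ifi205, with 71 protein-coding genes between Fcer1g and Ifi205 in RefSeq's order. The genes around Ifi205 were therefore read in that order, a window chosen after these values were seen. Of the 80 measured genes within 40 places of it, 7 were at least 2-fold higher on the stabilised array than on the GFP control (8.75%) and 2 were at least 2-fold lower (2.5%), against 2.77% higher and 4.89% lower of 9975 genes with a place in the order. Fcer1g and Dusp23, which prompted the window, are among the 7, and without them 5 of 78 were higher (6.41%), which is given as a description. The 7 were Fcer1g, Ly9, Slamf7, Dusp23, Crp, Ifi213 and Enah. Crp read 5.06 on the GFP control, 6.40 on the stabilised array and 5.28 to 5.64 on the tamoxifen arrays. Enah read 6.06, 7.23 and 5.83 to 6.97 in the same order. In both it was the stabilised array that read highest, unlike Ifi205.

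Ifi213, an Ifi200 family gene outside the 39, read 7.33 on the GFP control, 8.92 on the stabilised array and 8.21 to 8.71 on the tamoxifen arrays. Slamf7, a leukocyte surface receptor gene, read 5.39, 7.08 and 6.61 to 7.32 in the same order. Other family genes of the cluster did not share this: Ifi207 read 11.57 for the GFP control and 11.35 for the stabilised array, and Mndal 8.43 and 8.80. The macrophage marker mean was also lowest on the GFP control (9.88 against 10.65 to 11.21), where the 10 markers lay 0.62 to 2.00 log2 below the stabilised array. The part of cell make-up in the level of Ifi205 was not tested.
H2-Ea, which set the stabilised array apart, lies near the antigen-processing genes on chromosome 17, with 6 protein-coding genes between it and Psmb8, 7 before Tap1 and 8 before Psmb9. These 3 genes differed by -0.40, 0.27 and -0.70 log2 between the stabilised array and the GFP control.

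**Figure D5:**
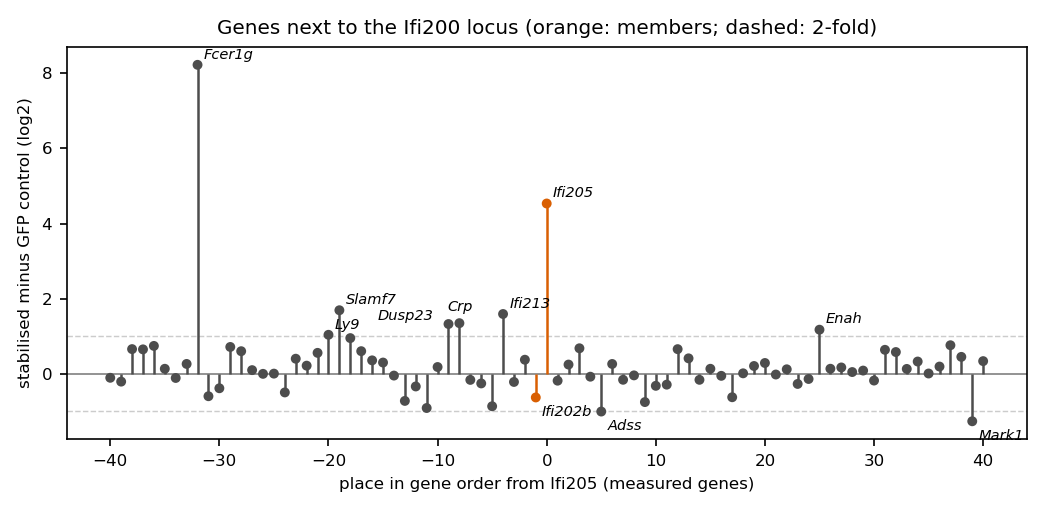
Stabilised minus GFP control (log2) for Ifi205 and the measured genes up to 40 places from it in RefSeq's gene order, with place in that order on the horizontal axis. Each stem is a gene, orange marks Ifi205 and Ifi202b, and dashed lines mark 2-fold. Fcer1g (8.23) and Ifi205 (4.53) stand far above the rest, and Ifi202b is at -0.63. Fcer1g and Ifi205 were below detection on the GFP control, so their stems show measured differences, and the bounds are at least 121-fold and at least 10.8-fold.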

How the data were processed

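Per the labels' protocols, total RNA from full-thickness wounds was amplified with biotin and read on Illumina bead arrays, 1 array per sample. The deposited series table holds log2 values, within 0.0874 of limma's neqc output from the deposited intensity table. Detection p-values were taken as deposited, per the file headers. R 2.14 is named in the submitters' processing notes, and no source used here states the normalization. The log2 values were used unchanged, and neqc of the intensities served as an alternative (offset 16).

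The brightest probe by mean over 6 arrays stood for its gene. A gene was kept where that probe was detected (p under 0.01) on 2 or more of 4 tamoxifen arrays (knockdown), 1 of 2 adenovirus arrays (stabilised) or 2 of 6 arrays. The platform annotation gave 34885 probes 1 symbol, 18 several and 10378 none. Tests used limma 3.58.1 in R 4.3.3, with 1 mean for each of 4 groups, eBayes, two-sided, Benjamini-Hochberg, 0.05, and 2 residual degrees of freedom. The labels call the samples biological replicates. No 2 arrays had more than 2 raw intensities in common.

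On simulated data with 9851 genes, the test recovered 2% of 2-fold and 74% of 4-fold changes between knockdown and control, and 22% and 84% between the experiments. Members and lists were chosen with earlier results of these data known. Genes given with per-array values were the Ifi200 locus, the 6 other genes with the largest differences for knockdown and for stabilised, the 3 highest, and any called. Up to 4 genes of each other list were named by size of difference in either comparison, and a few others, as the text says or to show a pattern, after their values were seen. Not every such gene is repeated in each comparison. Alternatives covered background, scaling, filters, probe choice, eBayes settings, the replicate number as a block and leaving out arrays.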

Additional observations from a re-analysis of the deposited data

How the results depend on the processing

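The count of genes past the test between the experiments was 5, and it was 8 with median scaling and 3 with no filter on detection. It fell with any 1 array left out. Over all genes these counts were 103, against 157 with median scaling, 46 with detection on every array, 9 without tamoxifen control 1, 16 without tamoxifen control 2, 53 without the GFP control and 32 without the stabilised array. The share of these calls that was higher on the tamoxifen arrays was 60.2%, against 48.8% without background correction. Leaving out an array takes away arrays and, for tamoxifen arrays, leaves 1 residual degree of freedom. Counting those with an array left out, Ifi205 was not called under 9 alternatives, Bst2 under 8, Irf7 and Isg15 under 6 each, and Mx2 under 3. With no filter on detection the limma adjusted p was 0.0567 for Ifi205 and 0.0625 for Bst2. For stabilised against GFP control, 36.1% of the genes at least 2-fold apart were higher, against 27.4% with median scaling. The count of genes at least 2-fold between stabilised and GFP control fell from 1 to 0 when detection on every array was required, which removes Ifi205. Over all genes this count was 765, against 312 without background correction and 441 with detection on every array. The difference of Ifi205 was 4.53, against 2.56 without background correction and 2.40 as the mean of its probes, and that of Mx1 was -0.64, against -0.23 without background correction.

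For knockdown, 0 interferon-stimulated genes passed under any alternative run, including the replicate block, where 746 of all genes had an unadjusted p under 0.05, against 434. Over all genes, 7 passed without knockdown 1 and 0 otherwise. The test of the difference between the effects called 1 gene, and 0 to 2 under the alternatives. The count of genes lower was 16 to 21 and the median -0.29 to -0.03 with an array left out. Ifi205 changed sign without tamoxifen control 2 (-0.15, over a range of -0.15 to 0.65). The replicate numbers mark age only, and the deviations from group means of knockdown 1 and tamoxifen control 1 correlated at 0.126. With 2 arrays in each group, replicate 2 mirrors replicate 1 and adds no further check. Signal over background limits Mx1, Oas1a, Oas3 and Isg20, which lie near the lowest detected signal, and Mx2 on the tamoxifen arrays. The difference of Mx2 between the experiments was -2.18 log2, against -1.30 without background correction.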

Other observations

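Probes of the same gene disagreed in a few places. The second probe of Irf9 read 9.84 for the GFP control and 8.76 for the stabilised array, and that of Usp18 10.06 and 9.37, both detected on all arrays. Gbp2, whose brightest probe read 11.25 to 12.14 on all arrays, had another probe that was detected on both adenovirus arrays (7.47 for the GFP control and 6.42 for the stabilised array) and on no tamoxifen array, at least 1.86-fold apart, and another that was detected on no array. The brightest probe of Ifitm1 was highest on the adenovirus arrays (14.36 and 14.39, against 13.60 to 13.81), whereas its 4 dimmer probes read highest on knockdown 2. There they gave 11.24, 6.95, 6.75 and 5.87, against at most 10.06, 5.32, 5.07 and 5.12 on any other array.

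Genes with the GAAA repeat before the start did not stand apart in size between the experiments: the median difference was -0.77 log2 over the 11 kept with a match and -0.77 over the 14 kept without. Of the 11, which include Ifi205, 9 were lower on the tamoxifen arrays, and of the 14 without a match, which include Ifi202b, 14 were. Mx2, Oas2, Usp18 and Ifi27 (-2.18, -2.02, -1.66 and 0.72) had no promoter entry and are in neither group. A role of the repeat was not tested. Irf7, with no match in this window, had the largest difference outside the Ifi200 locus among the 27 genes kept.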
